A study of Mus musculus with 40 samples.

Results

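The comparison of pubertal mammary adipocytes with pubertal mammary fibroblasts rests on 4 of the 40 RNA sequencing libraries of the series, the 2 libraries labelled fat and the 2 labelled stromal. All animals were wild-type FVB/N female mice without treatment, and each pubertal library pooled the thoracic and inguinal glands of 4 mice of postnatal day 34 to 36, the time at which the ducts branch and grow into the fat pad. The adipocytes were the layer that floated after 2 h of collagenase digestion and went into lysis without sorting, whereas the fibroblasts were sorted as cells that lack CD45, CD31, Ter119, EpCAM and CD49f, so that they were chosen by the absence of markers. Replicate 1 of all populations came from day 34, and replicate 2 came from day 36 in adipocytes and day 35 in fibroblasts. The 4 pubertal libraries of luminal cells, which line the ducts, and basal cells, their contractile outer layer, entered the same fit, and the 16 adipocyte and fibroblast libraries of adult mice of 14 to 16 weeks were used to ask whether a difference was the same after puberty.

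The ducts of the pubertal gland grow within a fat pad made of adipocytes, which store triglyceride and release adipokines, and of fibroblasts, which lay down collagen and surround the ducts. Growth signals from this stroma are known to drive the ducts: growth hormone acts through its receptor Ghr on stromal cells, which then release Igf1, and estrogen makes luminal cells shed amphiregulin (Areg), which acts on the receptor Egfr of the stroma. Fgf7, Fgf10 and Hgf are stromal ligands for the epithelial receptors Fgfr2 and Met, and Mmp14 and Mmp2 are proteases that open the matrix ahead of the growing end buds.

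Levels are given as RPKM, reads per kilobase of exon after TMM scaling to the library size of the 8 pubertal libraries, in the order replicate 1 and replicate 2. A log2 fold change is adipocytes over fibroblasts, so that a negative value is higher in fibroblasts, and its standard error (SE) and Benjamini-Hochberg adjusted p come from edgeR's quasi-likelihood test over all 14263 genes that passed the filter. There were 2 pools a group. The p values rest on the spread between pools in every population of the fit, luminal and basal cells included. The spread of other genes enters them too. In such bulk samples fewer cells of a type and less RNA per cell cannot be told apart.

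The 2 adipocyte libraries held 16607406 and 18108340 counts and the 2 fibroblast libraries 13678106 and 11774264. Pearson's r of log2 CPM, the counts scaled to library size, across genes was 0.908 between the adipocyte replicates and 0.981 between the fibroblast replicates, so that the adipocyte libraries were less alike. The 15 luminal marker genes, keratins and claudins among them, summed to 1789 and 1204 CPM in adipocytes and 128 and 212 in fibroblasts, against 20910 and 41720 in the luminal libraries. Basal markers summed to 623 and 3232 CPM in adipocytes and 1194 and 1335 in fibroblasts, against 12980 and 15060 in the basal libraries. That list divided, with 7 of 12 called higher in adipocytes, keratins among them, and Mylk, Cnn1 and Acta2 in fibroblasts. Krt14 was at 2.66% and 33.6% of the basal mean in adipocytes and 1.13% and 1.2% in fibroblasts. Acta2 was at 4.83% and 5.67% against 16% and 19.4%. Genes of the epidermis summed to 25.1 and 1118 CPM in adipocytes and 15.6 and 13.8 in fibroblasts. Adipocyte replicate 2 thus stood apart in basal and epidermal genes, and replicate 1 in endothelial markers, which summed to 4228 and 862 CPM in adipocytes and 2188 and 2335 in fibroblasts. Macrophage and leukocyte markers summed to 509.5 and 1065 CPM in adipocytes and 17.7 and 36.5 in fibroblasts, with 15 of 17 tested members higher in adipocytes (7 without adipocyte replicate 1 and 6 without replicate 2), and erythroid genes to 438 and 156 against 0.735 and 9.19. Pericyte and smooth muscle markers were the reverse, at 1635 and 961 CPM in adipocytes and 4110 and 4055 in fibroblasts, with 8 of 12 higher in fibroblasts (5 without fibroblast replicate 1 and 4 without replicate 2). The pericyte and smooth muscle list also summed to 6614 and 7058 CPM in basal cells and shares Acta2 with the basal list, so it does not mark pericytes alone. Skeletal muscle genes summed to 40.2 and 101 against 18.1 and 31.2 CPM, Schwann cell markers to 217 and 329.6 against 574 and 379.8, and replication and mitosis genes to 396 and 355 against 262 and 289.6. The Schwann cell markers summed to 731.7 and 484.9 CPM in luminal cells, so they do not mark Schwann cells alone. Immediate early and stress genes, which rise during dissociation, summed to 9956 and 3586 CPM in adipocytes and 9790 and 8401 in fibroblasts, lowest in adipocyte replicate 2. The marker genes at 0 counts in both libraries of a type included Lce1a1, Ms4a2 and Slc4a1, in fibroblasts. The fibroblast gate left out cells with CD45, Ter119, EpCAM or CD31, whereas the fat layer was not sorted. Lower leukocyte, erythroid and luminal genes in fibroblasts were thus to be foreseen from the design and are no separate result. Endothelial markers were still counted in the fibroblast libraries, at 2188 and 2335 CPM. The part of these other cells in the results was not tested, and their values are repeated beside the results they move with.

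**Figure D1:**
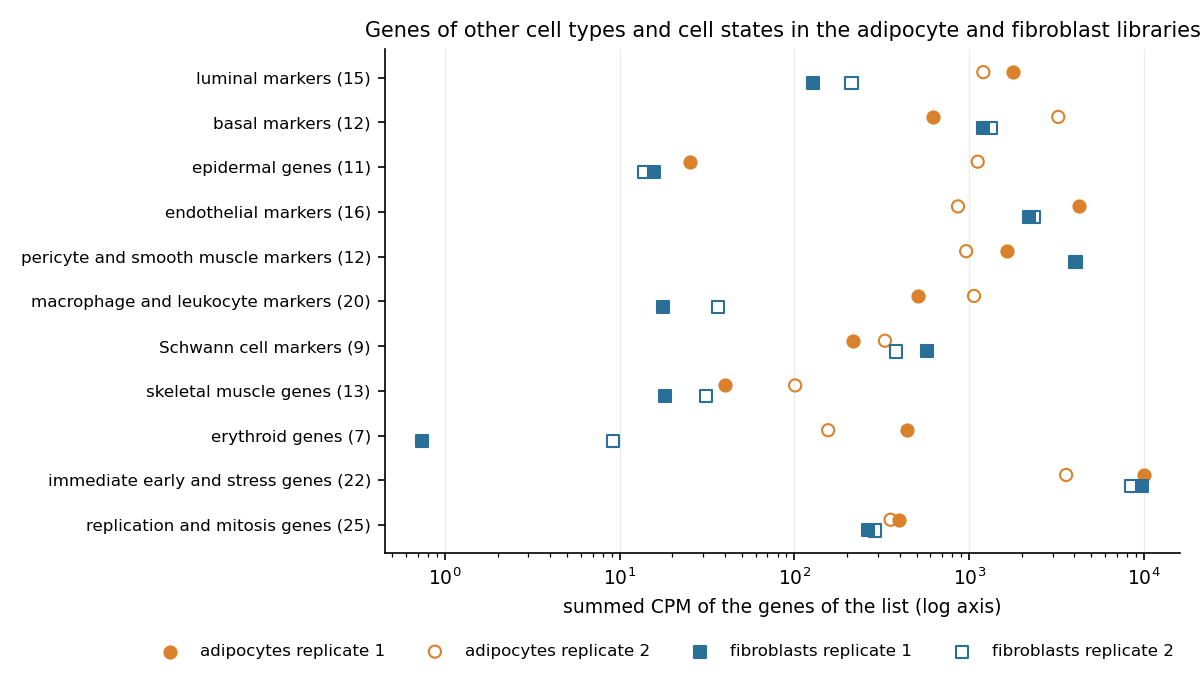
Each row is a list of genes of another cell type or cell state, with the number measured in brackets, and each point is the summed CPM of the list in a pubertal adipocyte (orange circle) or fibroblast (blue square) library on a log axis, filled for replicate 1 and open for replicate 2. Luminal, leukocyte and erythroid genes were higher in both adipocyte libraries than in both fibroblast libraries, and epidermal genes reached 1118 CPM only in adipocyte replicate 2.

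The 2 stromal populations differed in 4044 of 14263 genes tested (28.4%), of which 2430 (17% of those tested) were higher in adipocytes and 1614 (11.3%) higher in fibroblasts. At an unadjusted p under 0.05 there were 5947 genes, and both adipocyte libraries lay above both fibroblast libraries for 5327 genes and below them for 4585. Of the genes higher in adipocytes, 1273 (52.4%) had their highest mean level of the 4 pubertal populations in adipocytes, while 934 (38.4%) were highest in luminal and 220 (9.05%) in basal cells. Of the genes higher in fibroblasts, 1340 (83%) were highest in fibroblasts, 216 in basal and 54 in luminal cells. A gene called higher in adipocytes was therefore often an epithelial gene, and where that holds for a named gene its luminal or basal level is given. Without fibroblast replicate 1 the count fell to 1366 and without fibroblast replicate 2 to 1603. On plain library totals 74.4% of the calls were higher in adipocytes in place of 60.1%, and that scaling moved the median log2 fold change of all genes from 0.09 to 0.33.

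**Figure D2:**
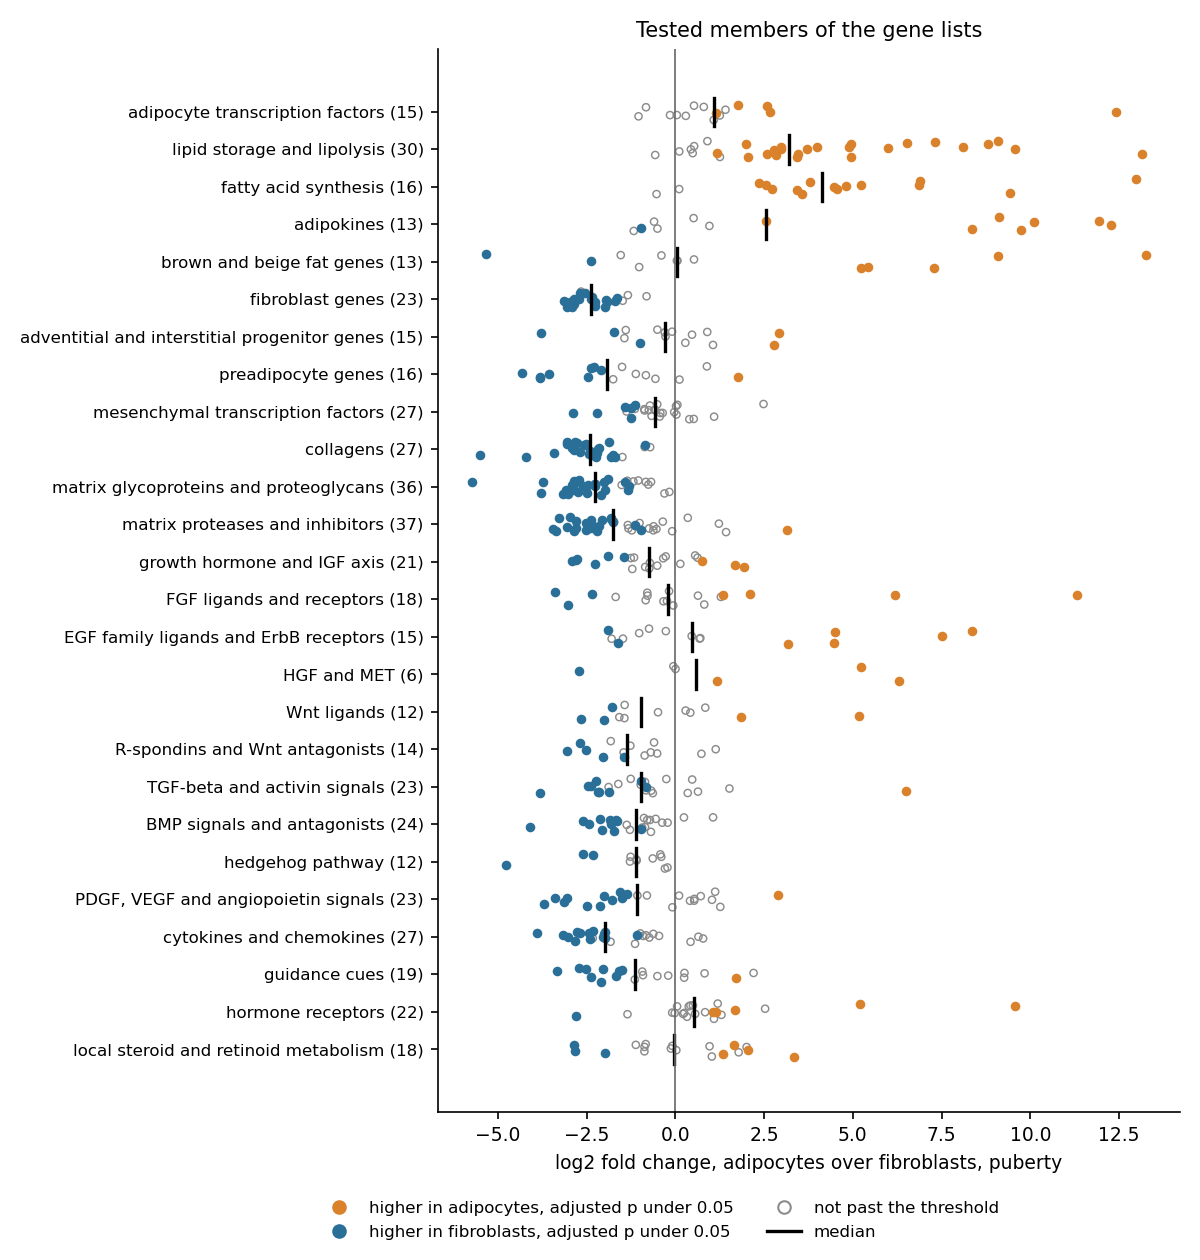
Each point is a tested member of a gene list, placed by its log2 fold change in adipocytes over fibroblasts, orange where higher in adipocytes and blue where higher in fibroblasts at an adjusted p under 0.05, with the median of the list as a black bar and the number tested in brackets. The lipid and adipokine lists lie to the right, and the fibroblast, collagen, matrix and cytokine lists to the left, with medians of -2.39 for collagens and 4.13 for fatty acid synthesis.

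The lineage markers followed the labels. Adipoq, the adipokine adiponectin, was at 460.4 and 312 RPKM in adipocytes and 0.532 and 0.145 RPKM in fibroblasts (log2 fold change 10.11, SE 0.64, edgeR adjusted p = 0.000276), with 10 counts in the fibroblast libraries together. Retn, the adipokine resistin, was at 90.9 and 73.4 RPKM in adipocytes and 0.0582 and 0.127 RPKM in fibroblasts. Plin1, which coats the lipid droplet, was at 48.5 and 28.1 RPKM in adipocytes and 0.632 and 0.58 RPKM in fibroblasts (log2 fold change 5.98, SE 0.42, edgeR adjusted p = 0.000291). Lep, the adipokine leptin, was at 8.25 and 9.41 RPKM in adipocytes and had 0 counts in fibroblasts, which makes it at least 207-fold higher against a floor of 3 counts over the fibroblast group. Cidec, which fuses lipid droplets, was at 369 and 176 RPKM in adipocytes with 1 count in fibroblasts. Lipe, the hormone-sensitive lipase, was at 59 and 31.1 RPKM in adipocytes and 1.48 and 1.53 RPKM in fibroblasts (log2 fold change 4.91, SE 0.39, edgeR adjusted p = 0.000313). All 6 adipocyte markers were thus near absent from fibroblasts or far lower there. Lep and Adipoq had no value without either adipocyte library, since a gene had to pass the filter on low counts in 2 libraries.

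The fibroblast markers were present in the adipocyte libraries as well. Col1a1, the main chain of type I collagen, was at 2587 and 2161 RPKM in fibroblasts and 221 and 517 RPKM in adipocytes (log2 fold change -2.68, SE 0.57, edgeR adjusted p = 0.0109). Col1a2 was at 2024 and 1616 RPKM in fibroblasts and 142 and 368 RPKM in adipocytes. Col3a1, the chain of type III collagen, was at 5813 and 3741 RPKM in fibroblasts and 503 and 807 RPKM in adipocytes. The receptor Pdgfra was at 108 and 109.7 RPKM in fibroblasts and 10.3 and 14.2 RPKM in adipocytes (log2 fold change -3.15, SE 0.36, edgeR adjusted p = 0.000955). The collagen-binding proteoglycan Dcn was at 1679 and 1309 RPKM in fibroblasts and 110.2 and 305 RPKM in adipocytes. Lum, of the same family, was at 1612 and 1312 RPKM in fibroblasts and 147 and 238 RPKM in adipocytes. For all 6 markers the groups did not overlap, with adipocyte replicate 2 above replicate 1 in each. Among all tested genes, both adipocyte libraries lay below both fibroblast libraries in 32.1%. Over the 23 genes of the fibroblast list, the adipocyte libraries reached a median of 12.7% (replicate 1) and 21.8% (replicate 2) of the fibroblast mean. Col1a1 was no longer called without fibroblast replicate 1. Col3a1 was no longer called without adipocyte replicate 1 or either fibroblast replicate. Lum was no longer called without either fibroblast replicate.

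**Figure D3:**
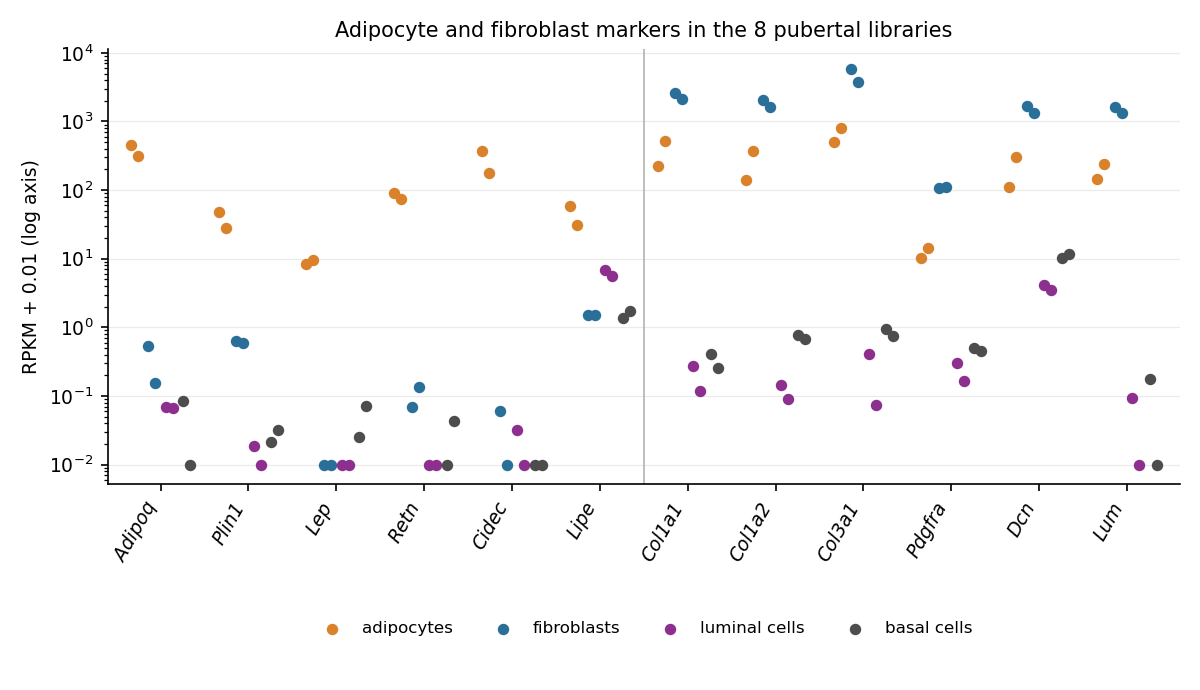
RPKM plus 0.01 on a log axis in the 2 libraries of each pubertal population, for 6 adipocyte genes (left of the line) and 6 fibroblast genes (right). Adipoq lay at 460.4 and 312 RPKM in adipocytes and under 1 in fibroblasts, while Col1a1 lay at 2587 and 2161 RPKM in fibroblasts and still at 221 and 517 in adipocytes.

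The promoters of an adipokine gene, of a pair of collagen genes and of the ligands Igf1 and Fgf10, which differed in opposite directions, are shown to set the letters beside the levels. Each window runs 5′ to 3′ on the gene's strand from 250 bases before to 50 after the start, from RefSeq's GRCm38.p6 table, with capitals for TATAAA and CCAAT on either strand, the cores of the TATA and CCAAT boxes. They lie at chr16:23146286-23146585, plus strand for Adipoq, at chr6:4505368-4505667, plus strand for Col1a2, at chr1:45311288-45311587, plus strand for Col3a1, at chr10:87860861-87861160, plus strand for Igf1, at chr13:118714449-118714748, plus strand for Fgf10.
Adipoq: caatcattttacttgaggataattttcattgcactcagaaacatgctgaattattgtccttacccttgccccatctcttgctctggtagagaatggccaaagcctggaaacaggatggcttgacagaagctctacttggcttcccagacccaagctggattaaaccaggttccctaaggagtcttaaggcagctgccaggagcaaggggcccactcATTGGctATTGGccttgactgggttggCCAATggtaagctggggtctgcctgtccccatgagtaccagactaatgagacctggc
Col1a2: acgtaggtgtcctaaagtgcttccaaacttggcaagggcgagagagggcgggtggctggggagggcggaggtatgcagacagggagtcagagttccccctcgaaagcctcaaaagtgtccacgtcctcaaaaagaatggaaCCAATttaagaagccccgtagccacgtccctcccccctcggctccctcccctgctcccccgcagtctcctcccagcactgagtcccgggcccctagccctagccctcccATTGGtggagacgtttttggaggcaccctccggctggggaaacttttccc
Col3a1: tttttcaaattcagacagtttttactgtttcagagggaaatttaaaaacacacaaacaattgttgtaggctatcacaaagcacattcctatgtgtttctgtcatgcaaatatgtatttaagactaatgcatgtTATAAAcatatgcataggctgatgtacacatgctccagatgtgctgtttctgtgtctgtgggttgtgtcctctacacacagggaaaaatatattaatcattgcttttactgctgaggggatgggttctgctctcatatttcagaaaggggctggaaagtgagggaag
Igf1: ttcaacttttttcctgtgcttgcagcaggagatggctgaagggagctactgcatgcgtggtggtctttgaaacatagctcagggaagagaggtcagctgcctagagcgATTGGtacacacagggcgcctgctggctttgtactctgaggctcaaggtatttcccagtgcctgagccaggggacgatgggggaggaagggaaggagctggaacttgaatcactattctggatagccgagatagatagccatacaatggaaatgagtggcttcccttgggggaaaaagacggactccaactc
Fgf10: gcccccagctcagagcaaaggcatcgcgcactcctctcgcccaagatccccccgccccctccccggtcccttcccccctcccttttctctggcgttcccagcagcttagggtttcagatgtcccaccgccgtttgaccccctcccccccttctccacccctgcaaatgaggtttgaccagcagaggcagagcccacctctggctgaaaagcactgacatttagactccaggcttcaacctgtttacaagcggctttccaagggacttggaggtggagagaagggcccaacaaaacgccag

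The Adipoq window held CCAAT 3 times, at positions -34 and -27 on the other strand and at -7 on the gene strand, counted from the first base at the start as 0, and the Col1a2 window held it 2 times, at -109 and at 0. Col3a1 had TATAAA at -117 on the gene strand, Igf1 had CCAAT at -142 on the other strand, and neither motif was in the Fgf10 window. In all 32544 windows of the table, TATAAA was in 13.6% and CCAAT in 37.4%. A window was matched by symbol for 10921 of the 14263 tested genes. TATAAA was in 8.68% of the 2317 windows of genes higher in adipocytes and in 8.66% of the 1559 windows of genes higher in fibroblasts, and CCAAT in 37.8% and 34.1%, against 7.54% and 37.1% in all tested genes. The motifs are matches of letters only.

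Of the 15 adipocyte transcription factors, 5 were higher in adipocytes, 0 were higher in fibroblasts and 10 did not pass the test. The share called was 33.3%, beside 28.4% of all tested genes, and the median log2 fold change was 1.08. Mlxipl, the carbohydrate response factor ChREBP, was at 8.02 and 7 RPKM in adipocytes with 0 counts in fibroblasts, at least 289-fold higher. Cebpa, which drives and keeps the adipocyte state, was at 52.3 and 58.6 RPKM in adipocytes and 19.1 and 13.3 RPKM in fibroblasts (log2 fold change 1.78, SE 0.31, edgeR adjusted p = 0.00501), so fibroblasts held a lower but clear level. Nr1h3, the sterol receptor LXR alpha, was at 14.1 and 11.9 RPKM in adipocytes and 2.92 and 1.39 RPKM in fibroblasts. Ppara, a receptor for fatty acids, was at 2.62 and 0.898 RPKM in adipocytes and 0.311 and 0.234 RPKM in fibroblasts. Srebf1, which drives lipid synthesis genes, was at 22.1 and 20.6 RPKM in adipocytes and 8.53 and 10.8 RPKM in fibroblasts. Pparg, the receptor that commands fat cell formation, was at 40.9 and 20.04 RPKM in adipocytes and 12.9 and 9.94 RPKM in fibroblasts, without overlap, but did not pass (log2 fold change 1.41, SE 0.53, edgeR adjusted p = 0.08). Among the factors that act early in fat cell formation, none of which passed, Cebpb was at 123 and 96 RPKM in fibroblasts and 79.9 and 43.2 RPKM in adipocytes. Cebpd was at 33.8 and 25.9 RPKM in fibroblasts and 19.8 and 9.19 RPKM in adipocytes, both without overlap, and Ebf1 overlapped at 11.5 and 7.48 RPKM in fibroblasts and 11 and 6.05 RPKM in adipocytes. The count of 5 was 3 without adipocyte replicate 1 or fibroblast replicate 1 and 2 without fibroblast replicate 2. Cebpa was no longer called without fibroblast replicate 2. Ppara was no longer called without either fibroblast replicate. Srebf1 was no longer called without adipocyte replicate 1 or either fibroblast replicate.

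Of the 30 genes of lipid storage and lipolysis, 23 were higher in adipocytes and 0 in fibroblasts, with a median log2 fold change of 3.21 where that of all tested genes was 0.09, and of the 16 genes of fatty acid synthesis 14 were higher in adipocytes, with a median of 4.13. The shares called were 76.7% and 87.5%, beside 28.4% of all tested genes. Gpd1, which makes the glycerol backbone, was at 284 and 195 RPKM in adipocytes and 0.558 and 0.506 RPKM in fibroblasts (log2 fold change 8.81, SE 0.40, edgeR adjusted p = 0.000136). Dgat2, which adds the last fatty acid of a triglyceride, was at 64.3 and 90.5 RPKM in adipocytes and 2.92 and 2.14 RPKM in fibroblasts (log2 fold change 4.94, SE 0.34, edgeR adjusted p = 0.000276). Pnpla3, a lipase-related protein of the lipid droplet, was at 51.5 and 66.1 RPKM in adipocytes and 0.534 and 0.194 RPKM in fibroblasts. Among the synthesis genes, Scd1, the stearoyl-CoA desaturase, reached 1626 and 1864 RPKM in adipocytes and 18.6 and 10.9 RPKM in fibroblasts (log2 fold change 6.89, SE 0.51, edgeR adjusted p = 0.000291), and Fasn, the fatty acid synthase, 262 and 331 RPKM in adipocytes and 14.7 and 12.3 RPKM in fibroblasts. Thrsp, a regulator of lipid synthesis, was at 179 and 219.7 RPKM in adipocytes and 0.21 and 0.365 RPKM in fibroblasts. Pcx, the pyruvate carboxylase, was at 84.8 and 97.2 RPKM in adipocytes and 0.908 and 0.651 RPKM in fibroblasts. Pck1, which makes glycerol precursors in fat, was at 214 and 48 RPKM in adipocytes with 1 count in fibroblasts. The synthesis genes Scd1, Fasn, Thrsp and Pcx were higher in adipocyte replicate 2 than in replicate 1, and Pck1 and the storage genes Plin1, Cidec and Gpd1 the other way round. Cd36, which takes up fatty acids, was at 731 and 211 RPKM in adipocytes and 63.7 and 23.9 RPKM in fibroblasts. Fabp4, which carries them in the cell, was at 1236 and 357 RPKM in adipocytes and 133 and 90.5 RPKM in fibroblasts. Endothelial cells also hold both, and endothelial markers summed to 4228 and 862 CPM in those adipocyte libraries. Members that did not pass included Plin2, Lpl, Cav1 and Scd2. Cd36 was no longer called without fibroblast replicate 2. Fabp4 was no longer called without either fibroblast replicate.

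Of the 13 adipokine genes tested (15 listed), 7 were higher in adipocytes (Adipoq, Retn, Cfd, Nrg4, Lep, Retnla and Lcn2) and 1 in fibroblasts. The share called was 61.5%, beside 28.4% of all tested genes. Lcn2, lipocalin 2, was highest in luminal cells (419.5 RPKM), at 51.6 and 17.3 RPKM in adipocytes and 7.25 and 4.38 RPKM in fibroblasts. Cfd, the complement factor adipsin, was the most abundant at 3403 and 1886 RPKM in adipocytes and 0.299 and 0.758 RPKM in fibroblasts (log2 fold change 12.29, SE 0.84, edgeR adjusted p = 0.000276). Retnla, also known from macrophages, was at 81.8 and 199 RPKM in adipocytes and 0.307 and 0.167 RPKM in fibroblasts, beside macrophage and leukocyte markers at 509.5 and 1065 CPM in the same adipocyte libraries and 17.7 and 36.5 CPM in fibroblasts. Of the 13 brown and beige fat genes tested (14 listed), 5 were higher in adipocytes and 2 in fibroblasts, so that 53.8% were called. Among all tested genes 17% were higher in adipocytes and 11.3% in fibroblasts. The median log2 fold change of this list was 0.06, where that of all tested genes was 0.09. Ucp1, the uncoupling protein of heat-producing fat, was at 238 and 83.2 RPKM in adipocytes and 1.35 and 0.672 RPKM in fibroblasts (log2 fold change 7.3, SE 0.67, edgeR adjusted p = 0.000506). Cidea, a droplet protein of such fat, was at 149 and 90.3 RPKM in adipocytes and 0.247 and 0.179 RPKM in fibroblasts. Cox8b, a subunit of cytochrome oxidase, was at 313 and 103 RPKM with 0 counts in fibroblasts, at least 514-fold higher. These 3 genes were higher in replicate 1 than in replicate 2 of the adipocytes. Dio2, the deiodinase that activates thyroid hormone, was in contrast at 99.4 and 43.1 RPKM in fibroblasts and 1.92 and 1.63 RPKM in adipocytes (log2 fold change -5.33, SE 0.47, edgeR adjusted p = 0.000467). Tmem26, a beige fat marker, was at 3.97 and 4.9 RPKM in fibroblasts and 0.796 and 0.902 RPKM in adipocytes (log2 fold change -2.38, SE 0.36, edgeR adjusted p = 0.00397). Fewer adipokines and fewer brown and beige fat genes were called in adipocytes without either adipocyte replicate. Part of that fall is the filter on low counts. Adipoq, Cfd and Cox8b, near absent from the other populations, did not pass it there and had no value. Lcn2 was no longer called without either fibroblast replicate.

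Of the 23 fibroblast genes, 19 (82.6%) were higher in fibroblasts and 0 in adipocytes, with a median log2 fold change of -2.37. Lox, which cross-links collagen, was at 142 and 107 RPKM in fibroblasts and 28.8 and 19.5 RPKM in adipocytes (log2 fold change -2.37, SE 0.31, edgeR adjusted p = 0.00161). Serpinf1, a secreted serpin, was at 679 and 472 RPKM in fibroblasts and 56.5 and 90.6 RPKM in adipocytes. Fbln2, a matrix glycoprotein, was at 109.6 and 74.5 RPKM in fibroblasts and 19.8 and 18.8 RPKM in adipocytes. Of the 27 mesenchymal transcription factors tested (28 listed), 6 were higher in fibroblasts and 21 did not pass. The 22.2% called stand beside 28.4% of all tested genes called in either direction and 11.3% higher in fibroblasts. Foxf1, a forkhead factor of mesenchyme, was at 6.5 and 5.21 RPKM in fibroblasts and 0.959 and 0.618 RPKM in adipocytes (log2 fold change -2.89, SE 0.44, edgeR adjusted p = 0.0028). Twist2 was at 16.6 and 28.8 RPKM in fibroblasts and 2.96 and 6.82 RPKM in adipocytes. Creb3l1, which drives collagen secretion, was at 42.6 and 36.8 RPKM in fibroblasts and 14.5 and 19 RPKM in adipocytes. Tbx2, a T-box factor of the early mammary bud, was at 5.62 and 4.35 RPKM in fibroblasts and 2.13 and 2.06 RPKM in adipocytes (log2 fold change -1.25, SE 0.28, edgeR adjusted p = 0.0124). The fibroblast count was 9 without fibroblast replicate 1, and that of the transcription factors 1 without fibroblast replicate 1 and 2 without fibroblast replicate 2, beside pericyte and smooth muscle markers that were also higher in the fibroblast libraries. Twist2 was no longer called without either fibroblast replicate. Creb3l1 was no longer called without either adipocyte replicate, either fibroblast replicate or either basal replicate and on plain library totals. Tbx2 was no longer called without fibroblast replicate 1.

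Of the 15 genes of adventitial and interstitial progenitors, 3 were higher in fibroblasts, 2 in adipocytes and 10 did not pass, so that 33.3% were called beside 28.4% of all tested genes. Of the 16 preadipocyte genes, 8 were higher in fibroblasts and 1, Abcg1, in adipocytes, a share of 56.2%. Has1, a hyaluronan synthase, was at 163 and 89.5 RPKM in fibroblasts and 9.42 and 8.73 RPKM in adipocytes (log2 fold change -3.79, SE 0.36, edgeR adjusted p = 0.000546). Cd55, a complement regulator, was at 14.5 and 14.7 RPKM in fibroblasts and 6.05 and 8.61 RPKM in adipocytes. Bmp7 was at 6.22 and 5.54 RPKM in fibroblasts and 1.17 and 2.38 RPKM in adipocytes with its highest mean in basal cells (16.6 RPKM). The markers of adventitial progenitors overlapped between the groups and did not pass. Dpp4, a surface peptidase, was at 8.56 and 2.1 RPKM in fibroblasts and 1.68 and 6.98 RPKM in adipocytes (log2 fold change -0.3, SE 0.75, edgeR adjusted p = 0.795). Pi16 was at 41.3 and 17.3 RPKM in fibroblasts and 4.44 and 17.8 RPKM in adipocytes (log2 fold change -1.4, SE 0.68, edgeR adjusted p = 0.162). Among the preadipocyte genes, Penk, the enkephalin precursor, was at 83.9 and 56.7 RPKM in fibroblasts and 5.97 and 5.9 RPKM in adipocytes (log2 fold change -3.56, SE 0.38, edgeR adjusted p = 0.000761). Fbln5, an elastic fibre protein, was at 37 and 26.9 RPKM in fibroblasts and 7.16 and 5.97 RPKM in adipocytes (log2 fold change -2.28, SE 0.27, edgeR adjusted p = 0.00108). Ggt5, a gamma-glutamyltransferase, was at 15.1 and 15 RPKM in fibroblasts and 3.05 and 2.43 RPKM in adipocytes. Gdf10, a ligand of the TGF-beta family, was at 35.8 and 9.89 RPKM in fibroblasts and 1.06 and 2.16 RPKM in adipocytes, and the fibroblast replicates were far apart. The progenitor genes called higher in adipocytes were Efhd1 and Dact2. Efhd1, a mitochondrial calcium-binding protein, was at 17.4 and 67.3 RPKM in adipocytes and 7.39 and 5.03 RPKM in fibroblasts. Dact2 was at 2.24 and 5.5 RPKM in adipocytes and 0.625 and 0.384 RPKM in fibroblasts and highest in luminal cells (7.15 RPKM). The count of progenitor genes in fibroblasts was 1 without either fibroblast replicate. The count of those in adipocytes was 1 without either fibroblast replicate. Cd55 was no longer called without adipocyte replicate 1, either fibroblast replicate or either basal replicate, on plain library totals, without the filter on low counts and in the fit of the 4 adipocyte and fibroblast libraries alone. Abcg1, Bmp7 and Efhd1 were no longer called without either fibroblast replicate.

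The 12 genes of largest fold change in each direction were taken among protein-coding genes that passed the test, did not overlap and had a mean of at least 20 RPKM in the higher type. In adipocytes they held Cidec, Pck1, Cfd and Cox8b above. Car3, the carbonic anhydrase of fat and muscle, was at 1883 and 1063 RPKM in adipocytes and 1.64 and 0.279 RPKM in fibroblasts. Adig, an adipocyte factor, was at 114 and 62.3 RPKM in adipocytes and 0 and 0.123 RPKM in fibroblasts. The other 6 were genes of skin or of neutrophils that were many times higher in adipocyte replicate 2 than in replicate 1. Psapl1 was at 0.0478 and 59.3 RPKM in adipocytes. Sdr16c6 was at 0.0631 and 54.7. S100a9 was at 2.57 and 174. Wfdc21 was at 9.97 and 127. Sprr2f was at 0.3 and 52.8. Pof1b was at 2.34 and 47.9, with 1 count of Pof1b and 0 of the others in the fibroblast libraries. These 6 genes moved with the epidermal genes, which summed to 25.1 and 1118 CPM in the adipocyte libraries, and their part in the calls was not tested. In fibroblasts the largest was Glycam1, a mucin-like protein of milk and of lymph node vessels, at 2553 and 6928 RPKM in fibroblasts and 3.83 and 47.4 RPKM in adipocytes (log2 fold change -7.53, SE 1.71, edgeR adjusted p = 0.0139), against 0.48 RPKM in luminal cells. Thbs4, a matrix thrombospondin, was at 76.2 and 38.8 RPKM in fibroblasts and 0.852 and 1.31 RPKM in adipocytes (log2 fold change -5.73, SE 0.47, edgeR adjusted p = 0.000541). Cytl1, a secreted cytokine-like protein, was at 31.9 and 18.5 RPKM in fibroblasts and 0.519 and 0.489 RPKM in adipocytes. Smoc2, a calcium-binding matrix protein, was at 97.3 and 52.2 RPKM in fibroblasts and 2.35 and 3.66 RPKM in adipocytes. These secreted matrix proteins were low in both adipocyte libraries. Apod, a lipid carrier, was at 619 and 325 RPKM in fibroblasts and 20.5 and 24.1 RPKM in adipocytes. Il1rl1, the receptor of the alarmin IL-33, was at 49.2 and 151 RPKM in fibroblasts and 4.9 and 3.31 RPKM in adipocytes. C7, a complement component, was at 55.3 and 11.5 RPKM in fibroblasts and 0.615 and 1.29 RPKM in adipocytes. The rest were Dio2, the peptide precursors Tac1 (46.8 and 32.4 RPKM in fibroblasts and 1.88 and 0.473 RPKM in adipocytes) and Gal (30.9 and 17.1 RPKM in fibroblasts and 1.16 and 1.02 RPKM in adipocytes), the chemokine Cxcl5 (114 and 82.6 RPKM in fibroblasts and 1.41 and 5.02 RPKM in adipocytes) and the serpin Serpina1b (22 and 51.2 RPKM in fibroblasts and 0.782 and 2.38 RPKM in adipocytes), whose near-identical gene copies may share its reads. Psapl1 and Sprr2f were no longer called without adipocyte replicate 2, either fibroblast replicate, either luminal replicate or either basal replicate. Sdr16c6 was no longer called without either fibroblast replicate, either luminal replicate or basal replicate 1. S100a9 was no longer called without either fibroblast replicate and in the fit of the 4 adipocyte and fibroblast libraries alone. Wfdc21 was no longer called without either fibroblast replicate and with DESeq2. Glycam1 was no longer called without fibroblast replicate 2.

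Most of the matrix genes tested were higher in fibroblasts. Of the 27 collagen genes, 24 were higher in fibroblasts, 0 in adipocytes and 3 (Col4a1, Col4a2 and Col8a1) did not pass, with a median log2 fold change of -2.39. The share called was 88.9%, beside 28.4% of all tested genes. The chain Col4a1 of the common basement membrane network overlapped at 586 and 327 RPKM in fibroblasts and 408 and 150.1 RPKM in adipocytes, beside endothelial markers at 4228 and 862 CPM in adipocytes. Col4a3, of the same family, was at 4.88 and 1.86 RPKM in fibroblasts and 0.0489 and 0.0979 RPKM in adipocytes (log2 fold change -5.5, SE 0.75, edgeR adjusted p = 0.00187). Col6a2, a chain of the beaded filaments of type VI collagen, was at 343 and 329.9 RPKM in fibroblasts and 43.5 and 37.2 RPKM in adipocytes (log2 fold change -3.06, SE 0.38, edgeR adjusted p = 0.00127). Col14a1, which coats fibrils, was at 156 and 137 RPKM in fibroblasts and 11.1 and 16.1 RPKM in adipocytes with 113 RPKM in basal cells. Col23a1, a membrane collagen, was at 8.55 and 12.5 RPKM in fibroblasts and 1.13 and 1.64 RPKM in adipocytes (log2 fold change -2.92, SE 0.33, edgeR adjusted p = 0.000933). The adipocyte libraries held a median of 18.6% (replicate 1) and 18.4% (replicate 2) of the fibroblast mean over the 26 collagens that reached 1 RPKM in fibroblasts. Of the 36 matrix glycoproteins and proteoglycans, 27 (75%) were higher in fibroblasts and 0 in adipocytes, with a median of -2.26. Eln, the elastin core, was at 229 and 191 RPKM in fibroblasts and 10.1 and 21.5 RPKM in adipocytes (log2 fold change -3.73, SE 0.42, edgeR adjusted p = 0.000925). Thbs2, a thrombospondin, was at 449 and 509.6 RPKM in fibroblasts and 86.7 and 72.2 RPKM in adipocytes (log2 fold change -2.59, SE 0.31, edgeR adjusted p = 0.0012). The collagen count was 14 without fibroblast replicate 1, and that of the glycoproteins 16 without fibroblast replicate 1.

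Of the 37 matrix proteases and inhibitors, 21 were higher in fibroblasts, 1 in adipocytes and 15 did not pass, so that 59.5% were called beside 28.4% of all tested genes. Mmp14, the membrane protease that activates Mmp2, was at 113 and 93.6 RPKM in fibroblasts and 30.9 and 29.8 RPKM in adipocytes (log2 fold change -1.76, SE 0.33, edgeR adjusted p = 0.00641), with 31.9 RPKM in luminal and 31.1 in basal cells. Its substrate Mmp2, a gelatinase, was at 743 and 558 RPKM in fibroblasts and 79.2 and 108 RPKM in adipocytes (log2 fold change -2.79, SE 0.35, edgeR adjusted p = 0.00134). Mmp19, a broad matrix protease, was at 404 and 439.7 RPKM in fibroblasts and 64 and 43.4 RPKM in adipocytes (log2 fold change -2.97, SE 0.32, edgeR adjusted p = 0.000844). Mmp3, stromelysin 1, was at 883 and 982 RPKM in fibroblasts and 20.1 and 171 RPKM in adipocytes (log2 fold change -3.29, SE 0.96, edgeR adjusted p = 0.0348), and its adipocyte replicates were the farthest apart of these. The inhibitors divided. Timp1 was at 213 and 286 RPKM in fibroblasts and 27 and 21.1 RPKM in adipocytes (log2 fold change -3.38, SE 0.50, edgeR adjusted p = 0.00252). Timp4 was at 2.57 and 0.759 RPKM in adipocytes and 0.187 and 0.186 RPKM in fibroblasts (log2 fold change 3.15, SE 0.71, edgeR adjusted p = 0.0209). Adamts18, a matrix protease that is highest in basal cells (7.05 RPKM), was low in both, at 0.425 and 0.248 RPKM in adipocytes and 0.244 and 0.0393 RPKM in fibroblasts. The count in fibroblasts was 11 without fibroblast replicate 1. Mmp14 was no longer called without fibroblast replicate 1. Mmp3 was no longer called without either fibroblast replicate or either luminal replicate and in the fit of the 4 adipocyte and fibroblast libraries alone. Timp4 was no longer called without either fibroblast replicate.

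The growth signals leaned to fibroblasts. Counting each gene of the 14 signalling lists once, 252 were tested, of which 81 (32.1%) were higher in fibroblasts and 28 (11.1%) in adipocytes, beside 11.3% and 17% of all tested genes. These lists also hold receptors, antagonists, binding proteins and steroid enzymes. They were chosen with earlier results of these data known, so the lean describes these lists only. Of the 81, 70 had their highest mean of the 4 populations in fibroblasts. Of the 28, 13 were highest in adipocytes (Klb, Nrg4, Vegfb, Adrb3, Hsd17b4, Acvr1c, Ghr, Fgf10, Hsd17b12, Adipor2, Fgfbp1, Akr1c14 and Akr1c18), 14 were highest in luminal cells and 1, Vdr, in basal cells. Over 13 of the 14, with Erbb4 (0.524 RPKM in luminal cells) left out for its low level, the adipocyte libraries held a median of 13% (replicate 1) and 13.2% (replicate 2) of the luminal mean, where the 15 luminal markers held a median of 6.93% and 4% (Areg stands among both). The signals, unlike the markers, were taken because they were called higher in adipocytes, so these medians cannot be set against each other. The part of luminal RNA in these genes was not tested.

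**Figure D4:**
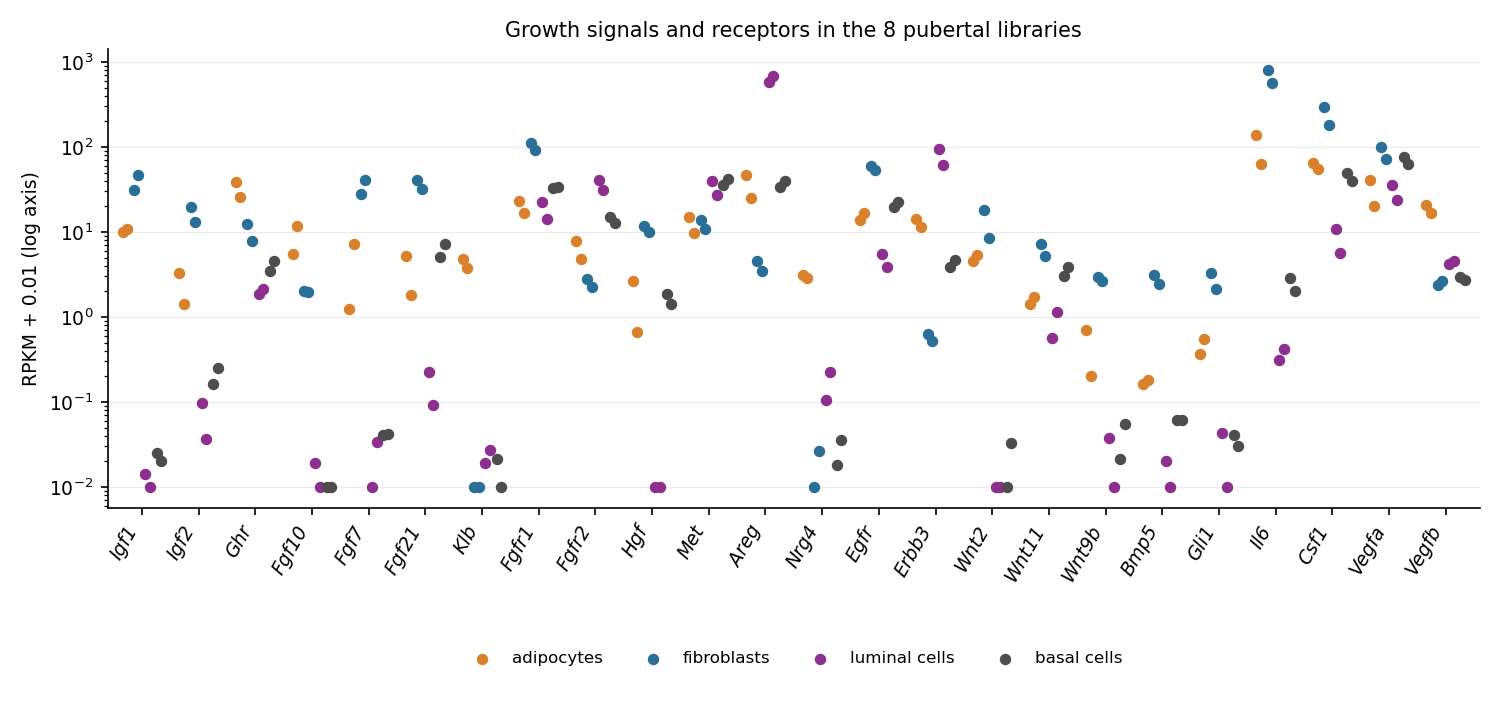
RPKM plus 0.01 on a log axis in the 2 libraries of each pubertal population for 24 growth signals and receptors, so that a point at 0.01 has 0 counts. Igf1, Fgf7 and Hgf were highest in fibroblasts, Fgf10, Klb, Nrg4 and Ghr in adipocytes, and Areg, Erbb3 and Fgfr2 in luminal cells.

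Of the 21 genes of the growth hormone and IGF axis, 6 were higher in fibroblasts, 3 in adipocytes and 12 did not pass. The share called was 42.9%, beside 28.4% of all tested genes. The ligand Igf1 was at 31 and 46.5 RPKM in fibroblasts and 9.86 and 11 RPKM in adipocytes (log2 fold change -1.89, SE 0.31, edgeR adjusted p = 0.00371), with both fibroblast libraries above both adipocyte libraries. Igf2 was at 19.9 and 13.3 RPKM in fibroblasts and 3.31 and 1.41 RPKM in adipocytes (log2 fold change -2.81, SE 0.49, edgeR adjusted p = 0.00508). Luminal and basal cells had means of 0.00208 and 0.0129 RPKM of Igf1. The receptor for growth hormone lay the other way. Ghr was at 38.7 and 25.9 RPKM in adipocytes and 12.3 and 7.89 RPKM in fibroblasts (log2 fold change 1.68, SE 0.33, edgeR adjusted p = 0.00796), and 2 and 4.04 RPKM in luminal and basal cells. Stat5a, a transcription factor downstream of that receptor, was at 15 and 14.8 RPKM in adipocytes and 8.74 and 8.86 RPKM in fibroblasts, with 23 RPKM in luminal cells. Igf1r, the IGF receptor, was at 1.51 and 1.01 RPKM in adipocytes and 2.08 and 2.46 RPKM in fibroblasts (log2 fold change -0.85, SE 0.44, edgeR adjusted p = 0.178). The binding protein Igfbp6 was at 429.7 and 361 RPKM in fibroblasts and 39.2 and 77.7 RPKM in adipocytes. Igfbp7, a matrix protein of the same family, was at 1512 and 1171 RPKM in fibroblasts and 349 and 208 RPKM in adipocytes. The IGF ligands and these binding proteins were thus higher in the same cells. Pappa2, a protease that frees IGF from binding proteins, was at 2.46 and 1.47 RPKM in fibroblasts and 0.0888 and 0.429 RPKM in adipocytes (log2 fold change -2.91, SE 0.74, edgeR adjusted p = 0.0249). Stc2, an inhibitor of that protease family, was at 8.28 and 9.27 RPKM in adipocytes and 2.09 and 2.55 RPKM in fibroblasts with 56.9 RPKM in luminal cells. The count of 3 in adipocytes was 1 without fibroblast replicate 2. Ghr was no longer called without fibroblast replicate 2. Stat5a was no longer called without either adipocyte replicate, either fibroblast replicate or either basal replicate, with RLE size factors and without the filter on low counts. Pappa2 was no longer called without either fibroblast replicate.

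Of the 18 tested genes of FGF ligands and receptors (22 listed), 4 were higher in adipocytes, 3 in fibroblasts and 11 did not pass, so that 38.9% were called beside 28.4% of all tested genes. Fgf10, a ligand of the epithelial receptor Fgfr2, was at 5.51 and 11.6 RPKM in adipocytes and 2.02 and 1.98 RPKM in fibroblasts (log2 fold change 2.11, SE 0.44, edgeR adjusted p = 0.0121), and was near 0 in luminal and basal cells. Fgf7, which acts on the same receptor, was at 28.2 and 40.7 RPKM in fibroblasts and 1.22 and 7.17 RPKM in adipocytes (log2 fold change -3.03, SE 0.71, edgeR adjusted p = 0.016). The groups did not overlap for either ligand, and adipocyte replicate 2 was the higher adipocyte library in both. Fgf21, an endocrine ligand, was at 41.1 and 31.9 RPKM in fibroblasts and 5.19 and 1.81 RPKM in adipocytes (log2 fold change -3.38, SE 0.52, edgeR adjusted p = 0.00299), whereas its co-receptor Klb was at 4.78 and 3.81 RPKM in adipocytes with 0 counts in fibroblasts, at least 136-fold higher. Among the receptors, Fgfr1 was at 110.4 and 92.1 RPKM in fibroblasts and 23.4 and 16.5 RPKM in adipocytes (log2 fold change -2.34, SE 0.34, edgeR adjusted p = 0.00241). Fgfr2 was at 7.92 and 4.81 RPKM in adipocytes and 2.79 and 2.22 RPKM in fibroblasts (log2 fold change 1.34, SE 0.32, edgeR adjusted p = 0.0174) with 36.4 RPKM in luminal cells. Fgf2, a ligand held in the matrix, overlapped at 0.8 and 1.33 RPKM in adipocytes and 1.25 and 0.972 RPKM in fibroblasts (log2 fold change -0.06, SE 0.41, edgeR adjusted p = 0.93). Fgfbp1, which carries FGFs and is known from skin, was at 0.377 and 46.3 RPKM in adipocytes and 0.122 and 0.53 RPKM in fibroblasts, high in the library with epidermal genes. The count of 4 in adipocytes was 2 without adipocyte replicate 1 and 1 without either fibroblast replicate. The count of 3 in fibroblasts was 5 without adipocyte replicate 1. Fgf10 was no longer called without either fibroblast replicate. Fgf7 was no longer called without either fibroblast replicate and in the fit of the 4 adipocyte and fibroblast libraries alone. Fgfr2 was no longer called without adipocyte replicate 1 or either fibroblast replicate. Fgfbp1 was no longer called without adipocyte replicate 2, either fibroblast replicate, either luminal replicate or either basal replicate and in the fit of the 4 adipocyte and fibroblast libraries alone.

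Hgf, which drives branching through Met, was at 11.7 and 10.1 RPKM in fibroblasts and 2.65 and 0.663 RPKM in adipocytes (log2 fold change -2.72, SE 0.59, edgeR adjusted p = 0.0145), and its receptor overlapped between the stromal populations at 15.1 and 9.68 RPKM in adipocytes and 13.7 and 11 RPKM in fibroblasts, under the 33.3 and 38.9 RPKM of luminal and basal cells. The other genes called in this group of 6 tested (8 listed) were St14, Spint1 and Spint2. St14, a protease that activates Hgf, was at 8.43 and 7.1 RPKM in adipocytes and 0.241 and 0.17 RPKM in fibroblasts. Its inhibitor Spint1 was at 9.07 and 7.76 RPKM in adipocytes and 0 and 0.217 RPKM in fibroblasts. Spint2 was at 9.94 and 8.74 RPKM in adipocytes and 3 and 5.22 RPKM in fibroblasts, with luminal means of 72.1, 88.8 and 79.7 RPKM. Of the 15 EGF family ligands and ErbB receptors tested (17 listed), 5 were higher in adipocytes and 2 in fibroblasts. This made 46.7% called, beside 28.4% of all tested genes. The receptor Egfr was at 59.6 and 53.9 RPKM in fibroblasts and 13.8 and 16.9 RPKM in adipocytes (log2 fold change -1.89, SE 0.29, edgeR adjusted p = 0.00303). Errfi1, an inhibitor that Egfr signals induce, was at 274 and 348 RPKM in fibroblasts and 96 and 107 RPKM in adipocytes (log2 fold change -1.61, SE 0.32, edgeR adjusted p = 0.00786). Areg, its ligand, was at 46.8 and 25.5 RPKM in adipocytes and 4.54 and 3.45 RPKM in fibroblasts, against a luminal mean of 637. Erbb3, a neuregulin receptor, was at 14 and 11.4 RPKM in adipocytes and 0.626 and 0.515 RPKM in fibroblasts against 78.3. The receptor Egfr was thus higher in fibroblasts, and its ligand Areg, at a few percent of the luminal level, in adipocytes. Nrg4, an adipokine of the neuregulin family, was at 3.12 and 2.83 RPKM in adipocytes with 1 count in fibroblasts, and a luminal mean of 0.156. Epgn, a ligand of skin epithelium, was at 4.25 and 103 RPKM in adipocytes and 0.254 and 0.332 RPKM in fibroblasts, high in the library with epidermal genes. The count of the EGF family in adipocytes was 3 without either fibroblast replicate. The count of that family in fibroblasts was 4 without adipocyte replicate 2 and 1 without fibroblast replicate 2. Hgf and Epgn were no longer called without either fibroblast replicate. Spint2 was no longer called without adipocyte replicate 1, fibroblast replicate 1 or either basal replicate and in the fit of the 4 adipocyte and fibroblast libraries alone. Errfi1 was no longer called without fibroblast replicate 2.

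Of the 12 Wnt ligands tested (19 listed), 3 were higher in fibroblasts (Wnt11, Wnt9a and Wnt9b), 2 in adipocytes (Wnt5b and Wnt7b) and 7 did not pass. The share called was 41.7%, beside 28.4% of all tested genes. Wnt11, which signals without beta-catenin in many settings, was at 7.31 and 5.24 RPKM in fibroblasts and 1.41 and 1.72 RPKM in adipocytes (log2 fold change -2, SE 0.40, edgeR adjusted p = 0.00818). Wnt9b was at 2.97 and 2.61 RPKM in fibroblasts and 0.688 and 0.191 RPKM in adipocytes. Wnt9a was at 3.39 and 1.95 RPKM in fibroblasts and 0.86 and 0.69 RPKM in adipocytes. Wnt2 had the highest level of these ligands in fibroblasts, at 18 and 8.55 RPKM in fibroblasts and 4.51 and 5.29 RPKM in adipocytes without overlap, and an adjusted p just above the threshold (log2 fold change -1.43, SE 0.45, edgeR adjusted p = 0.0514). The ligands higher in adipocytes were luminal by level: Wnt5b was at 5.4 and 2.85 RPKM in adipocytes and 1.07 and 1.2 RPKM in fibroblasts with a luminal mean of 41.4 RPKM. Wnt7b was at 2.07 and 0.832 RPKM in adipocytes and 0.0563 and 0.0204 RPKM in fibroblasts with 29.8. Of the 14 R-spondins and Wnt antagonists tested (18 listed), 5 were higher in fibroblasts and 0 in adipocytes, a share of 35.7%. Sfrp1, a decoy for Wnt proteins, was at 23.8 and 18 RPKM in fibroblasts and 4.18 and 3.18 RPKM in adipocytes (log2 fold change -2.5, SE 0.28, edgeR adjusted p = 0.000912). Sfrp2 was at 21.3 and 16.3 RPKM in fibroblasts and 3.82 and 5.36 RPKM in adipocytes. Dkk3, a secreted member of the Dickkopf family, was at 41.1 and 19.1 RPKM in fibroblasts and 2.79 and 4.49 RPKM in adipocytes. Rspo1, which strengthens Wnt signals, overlapped at 4.74 and 2.63 RPKM in fibroblasts and 1.89 and 2.66 RPKM in adipocytes (log2 fold change -0.69, SE 0.45, edgeR adjusted p = 0.282). The count of Wnt ligands in fibroblasts was 6 without either luminal replicate and 0 without fibroblast replicate 1. The count of those in adipocytes was 1 without either fibroblast replicate. The count of R-spondins and antagonists was 3 without fibroblast replicate 1. Wnt11 was no longer called without fibroblast replicate 1. Wnt9b and Wnt5b were no longer called without either fibroblast replicate. Wnt9a was no longer called without adipocyte replicate 2 or fibroblast replicate 1. Wnt2 itself passed the threshold under 6 of the 15 alternatives, among them DESeq2 and RLE size factors.

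Of the 23 genes of TGF-beta and activin signals tested (24 listed), 9 were higher in fibroblasts and 1 in adipocytes, and of the 24 BMP signals and antagonists 11 and 0. The shares called were 43.5% and 45.8%, beside 28.4% of all tested genes. The ligand Tgfb2 was at 11.5 and 9.14 RPKM in fibroblasts and 2.57 and 3.1 RPKM in adipocytes. Tgfb3 was at 21.2 and 16.1 RPKM in fibroblasts and 8.63 and 10.3 RPKM in adipocytes, of a family known to restrain ductal growth. Ltbp1, which stores TGF-beta in the matrix, was at 18.4 and 20.7 RPKM in fibroblasts and 3.63 and 5.04 RPKM in adipocytes (log2 fold change -2.17, SE 0.26, edgeR adjusted p = 0.0012). Fstl3, an activin antagonist, was at 11.1 and 11 RPKM in fibroblasts and 2.14 and 2.82 RPKM in adipocytes. Acvr1c, a receptor known from fat cells, was at 5.57 and 2.07 RPKM in adipocytes and 0.0395 and 0.043 RPKM in fibroblasts (log2 fold change 6.51, SE 0.83, edgeR adjusted p = 0.00142). Among the BMP ligands, Bmp5 and Bmp2 were higher in the same cells. Bmp5 was at 3.15 and 2.41 RPKM in fibroblasts and 0.151 and 0.171 RPKM in adipocytes. Bmp2 was at 12.2 and 14 RPKM in fibroblasts and 2.55 and 2.34 RPKM in adipocytes. Bmp4, a stromal ligand known from the mammary bud, overlapped at 6.21 and 2.35 RPKM in fibroblasts and 3.71 and 1.61 RPKM in adipocytes (log2 fold change -0.69, SE 0.58, edgeR adjusted p = 0.406). In the hedgehog pathway, 3 of 12 tested genes (14 listed) were higher in fibroblasts and 0 in adipocytes. The 25% called stand beside 28.4% of all tested genes called in either direction and 11.3% higher in fibroblasts, and rest on 3 genes. The pathway target Hhip was at 3.06 and 1.07 RPKM in fibroblasts and 0.0336 and 0.114 RPKM in adipocytes. The target Gli1 was at 3.33 and 2.1 RPKM in fibroblasts and 0.354 and 0.54 RPKM in adipocytes, while Ptch1, a receptor and also a target, overlapped at 1.18 and 0.824 RPKM in fibroblasts and 1.14 and 0.574 RPKM in adipocytes. The ligand Dhh was at 1.27 and 0.681 RPKM in fibroblasts and 0.208 and 0.183 RPKM in adipocytes, and Shh and Ihh were not tested, with 1 and 0 counts in the 4 libraries. The count of TGF-beta and activin signals in fibroblasts was 4 without fibroblast replicate 1. The count of BMP signals was 3 without fibroblast replicate 1 and 6 without fibroblast replicate 2. The count of hedgehog genes was 0 without fibroblast replicate 1. Tgfb2 and Gli1 were no longer called without fibroblast replicate 1. Tgfb3 was no longer called without adipocyte replicate 1, either fibroblast replicate or either basal replicate, on plain library totals and in the fit of the 4 adipocyte and fibroblast libraries alone. Dhh was no longer called without adipocyte replicate 2.

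Of the 23 PDGF, VEGF and angiopoietin genes, 11 were higher in fibroblasts and 1 in adipocytes, so that 52.2% were called beside 28.4% of all tested genes. Vegfa, the main ligand for vessel growth, was at 101 and 73.2 RPKM in fibroblasts and 40.7 and 20.5 RPKM in adipocytes (log2 fold change -1.51, SE 0.39, edgeR adjusted p = 0.0232). Vegfc, which acts on lymph vessels, was at 10.7 and 11.7 RPKM in fibroblasts and 2.12 and 2.98 RPKM in adipocytes (log2 fold change -2.13, SE 0.31, edgeR adjusted p = 0.00245). Vegfb, linked to fatty acid uptake, was the member higher in adipocytes, at 20.5 and 16.6 RPKM in adipocytes and 2.35 and 2.61 RPKM in fibroblasts (log2 fold change 2.9, SE 0.29, edgeR adjusted p = 0.000657). The receptor Pdgfrb, which pericytes also hold, was at 104 and 80.9 RPKM in fibroblasts and 27.5 and 18.3 RPKM in adipocytes, beside pericyte and smooth muscle sums of 4110 and 4055 CPM in fibroblasts and 1635 and 961 in adipocytes. The same list summed to 6614 and 7058 CPM in basal cells. Apart from Vegfb, the vessel ligands described were higher in fibroblasts. Of the 27 cytokines and chemokines, 14 (51.9%) were higher in fibroblasts, 0 in adipocytes and 13 did not pass, with a median log2 fold change of -1.98. Csf1, the growth factor of macrophages, was at 294 and 183 RPKM in fibroblasts and 64.8 and 55.9 RPKM in adipocytes (log2 fold change -1.98, SE 0.40, edgeR adjusted p = 0.00873). Ccl11, eotaxin, which draws eosinophils, was at 446 and 247 RPKM in fibroblasts and 60.8 and 45.8 RPKM in adipocytes (log2 fold change -2.7, SE 0.37, edgeR adjusted p = 0.00191). Gdnf, a neurotrophic factor, was at 21.6 and 31 RPKM in fibroblasts and 1.09 and 2.39 RPKM in adipocytes. Of the cytokines that injury and dissociation also induce, Il6 was at 804 and 563 RPKM in fibroblasts and 138 and 62.8 RPKM in adipocytes. Cxcl1 was at 1279.8 and 951 RPKM in fibroblasts and 159 and 157 RPKM in adipocytes. Lif was at 62.2 and 106 RPKM in fibroblasts and 3.47 and 15.4 RPKM in adipocytes. Immediate early and stress genes summed to 9790 and 8401 CPM in these fibroblast libraries and 9956 and 3586 in adipocytes. Of the 22, 4 (18.2%) were higher in fibroblasts and 0 in adipocytes, a count that changed when single libraries were left out. Among all tested genes 28.4% were called and 11.3% were higher in fibroblasts, so the count is no clear result about this list. Of the 19 guidance cues tested (20 listed), 9 were higher in fibroblasts and 1, Epha2, in adipocytes, which was highest in luminal cells. The share of guidance cues called was 52.6%. Slit2, a ligand of the Robo receptors, was at 2.65 and 2.21 RPKM in fibroblasts and 0.431 and 0.499 RPKM in adipocytes. Slit3 was at 74.5 and 35 RPKM in fibroblasts and 9.61 and 9.36 RPKM in adipocytes. The count of PDGF, VEGF and angiopoietin genes in fibroblasts was 6 without fibroblast replicate 1. In adipocytes it was 4 without adipocyte replicate 2, where the remaining adipocyte library is the one with endothelial markers at 4228 CPM. The count of cytokines was 9 without either fibroblast replicate. The count of guidance cues in fibroblasts was 5 without either fibroblast replicate. Vegfa was no longer called without adipocyte replicate 2 or either fibroblast replicate, on plain library totals and in the fit of the 4 adipocyte and fibroblast libraries alone. Csf1 was no longer called without fibroblast replicate 1. Lif was no longer called without fibroblast replicate 2. Epha2 was no longer called without adipocyte replicate 1, either fibroblast replicate or basal replicate 1 and in the fit of the 4 adipocyte and fibroblast libraries alone.

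Of the 22 hormone receptors tested (23 listed), 5 were higher in adipocytes, 1 in fibroblasts and 16 did not pass, so that 27.3% were called beside 28.4% of all tested genes. Esr1, the estrogen receptor alpha, overlapped at 3.46 and 5.12 RPKM in adipocytes and 3.282 and 3.94 RPKM in fibroblasts (log2 fold change 0.25, SE 0.28, edgeR adjusted p = 0.528), with 6.24 RPKM in luminal and 0.422 in basal cells. Pgr, the progesterone receptor, was at 9.63 and 6.65 RPKM in adipocytes and 1.34 and 5.78 RPKM in fibroblasts against a luminal mean of 34. Esr1 and Pgr thus did not separate the stromal populations by the test. The leptin receptor Lepr was at 9.44 and 12.6 RPKM in fibroblasts and 1.65 and 1.49 RPKM in adipocytes (log2 fold change -2.81, SE 0.60, edgeR adjusted p = 0.0111), opposite to its ligand, which had 0 counts in fibroblasts. Adrb3, the beta-adrenergic receptor of fat, was at 18.6 and 6.37 RPKM in adipocytes with 1 count in fibroblasts. Adipor2, an adiponectin receptor, was at 60.8 and 37.1 RPKM in adipocytes and 24.4 and 22.5 RPKM in fibroblasts (log2 fold change 1.06, SE 0.29, edgeR adjusted p = 0.0271). Adipor1, the other adiponectin receptor, did not pass (log2 fold change 0.43, SE 0.28, edgeR adjusted p = 0.281), so that Adipor2 alone of these receptors was called on the side of its ligand. Prlr, the prolactin receptor, was at 9.13 and 5.02 RPKM in adipocytes and 0.252 and 0.13 RPKM in fibroblasts with a luminal mean of 23.8, and Pth1r, the receptor of the bud signal PTHrP, overlapped at 4.69 and 8.93 RPKM in adipocytes and 5.84 and 3.82 RPKM in fibroblasts. Among the 18 genes of local steroid and retinoid metabolism tested (22 listed), 4 were higher in adipocytes and 3 in fibroblasts, a share of 38.9%. Hsd17b4, which oxidises estradiol and acts in peroxisomes, was at 36.1 and 37.2 RPKM in adipocytes and 8.91 and 8.92 RPKM in fibroblasts (log2 fold change 2.04, SE 0.24, edgeR adjusted p = 0.00105). Cyp7b1, an oxysterol hydroxylase, was at 9.2 and 7.84 RPKM in fibroblasts and 0.76 and 1.56 RPKM in adipocytes. Crabp1, a retinoic acid carrier, was at 82.5 and 71.1 RPKM in fibroblasts and 4.94 and 16.5 RPKM in adipocytes. The count of receptors in adipocytes was 3 without adipocyte replicate 1, either fibroblast replicate or either basal replicate. The count of metabolic genes in adipocytes was 2 without fibroblast replicate 2, either luminal replicate or either basal replicate and 1 without adipocyte replicate 2 or fibroblast replicate 1. The count of those in fibroblasts was 5 without either luminal replicate. Lepr was no longer called without either fibroblast replicate. Adipor2 was no longer called without adipocyte replicate 1, either fibroblast replicate or either basal replicate and in the fit of the 4 adipocyte and fibroblast libraries alone.

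In the comparison with the epithelium, the mean of adipocytes and fibroblasts differed from the mean of luminal and basal cells in 6600 of 14263 genes (46.3%), 3900 of them higher in the stroma and 2700 in the epithelium. On plain library totals the majority turned, with 3179 higher in the stroma and 4692 in the epithelium. The stromal ligands were far above the epithelium whichever stromal cell held them: the log2 fold change of stroma over epithelium was 11.51 (SE 0.38, edgeR adjusted p = 2.46e-06) for Igf1 and 9.30 (SE 0.81, edgeR adjusted p = 4.2e-05) for Fgf7. Fgf10, higher in adipocytes, gave 10.20 (SE 0.58, edgeR adjusted p = 1.25e-05), and Hgf, higher in fibroblasts, 6.67 (SE 0.70, edgeR adjusted p = 0.000211). The receptor Fgfr2 and the ligand Areg were the reverse, at -2.49 (SE 0.24, edgeR adjusted p = 6.48e-05) and -3.67 (SE 0.27, edgeR adjusted p = 1.73e-05). Of the 21 growth hormone and IGF genes, 14 were higher in the stroma and 1 in the epithelium, and of the 27 cytokines and chemokines 18 and 3, while the 12 Wnt ligands divided into 6 and 4.

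Whether the difference between adipocytes and fibroblasts was the same in the adult was asked in a fit of the 20 adipocyte and fibroblast libraries, in which the adult difference is the mean over proestrus, estrus, metestrus and diestrus and RPKM are scaled over these 20 libraries. The pubertal and adult libraries were sequenced in separate runs, so that age and run cannot be told apart, and the difference of the differences compares cell types within each. It passed the test in 868 of 14774 genes (5.88%), with 268 (1.81%) more toward adipocytes and 600 (4.06%) more toward fibroblasts in puberty. That balance turned on plain library totals, with 682 toward adipocytes and 94 toward fibroblasts, and in the fit of all 40 libraries, with 1320 and 674. These calls rested on the pubertal libraries: 21 genes were called without pubertal adipocyte replicate 1 (20 of them among the 868), 759 without its replicate 2, 43 without pubertal fibroblast replicate 1 and 0 by edgeR without fibroblast replicate 2, where 2530 genes had an unadjusted p under 0.05. The adult replicates of a stage come from the same pools of mice in both cell types. With the replicate numbers within each stage as a block (the pool block) the count was 68, while DESeq2 called 1961. That block also paired the pubertal libraries by number, although their replicate 2 came from day 36 in adipocytes and day 35 in fibroblasts. Leaving out a single adult library gave 335 calls (without metestrus adipocyte replicate 1) to 1496 (without estrus fibroblast replicate 2), and 2263 were called without both diestrus adipocyte libraries.

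Igf1 was among the genes that kept the call with that block (adjusted p = 0.0146 without the block and 0.047 with it). Its level was 8.43 and 9.46 RPKM in pubertal adipocytes and 26.5 and 40.1 RPKM in pubertal fibroblasts, and in the adult a median of 12.8 (range 6.24 to 17.2) in 8 adipocyte libraries and 6.44 (range 4.23 to 12) in 8 fibroblast libraries. The log2 fold change of adipocytes over fibroblasts was therefore -1.89 in puberty and 0.74 in the adult, of opposite sign (difference -2.63, SE 0.41, edgeR adjusted p = 0.0146), with both pubertal fibroblast libraries above all 8 adult ones. The call was lost without pubertal adipocyte replicate 1 (adjusted p = 0.0605) and without pubertal fibroblast replicate 2 (adjusted p = 0.0953), and kept under the other 26 of 28 alternatives.

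Other signals had the same sign at both ages. For Fgf10 the log2 fold change was 2.1 in puberty and 2.39 in the adult (difference -0.28, SE 0.61, edgeR adjusted p = 0.828), Hgf -2.72 in puberty and -2.23 in the adult (difference -0.49, SE 0.69, edgeR adjusted p = 0.709), and Wnt2 -1.43 in puberty and -1.72 in the adult (difference 0.29, SE 0.48, edgeR adjusted p = 0.762). Ghr had 1.68 in puberty and 2.89 in the adult (difference -1.21, SE 0.55, edgeR adjusted p = 0.19), and Fgf7 -3.03 in puberty and -1.97 in the adult (difference -1.07, SE 0.83, edgeR adjusted p = 0.46). A p over the threshold does not show that these differences are equal. Wnt11 was higher in fibroblasts at both ages, -2 in puberty and -3.7 in the adult (difference 1.70, SE 0.32, edgeR adjusted p = 0.0184), and so was Mmp14, -1.76 in puberty and -2.87 in the adult (difference 1.11, SE 0.28, edgeR adjusted p = 0.0386), whose level in adipocytes was 26.4 and 25.7 RPKM in puberty and a median of 8.98 (range 7.95 to 14.1) in the adult. The call of Wnt11 was lost with the pool block (adjusted p = 0.0573) and without 3 of the 4 pubertal libraries, and Mmp14 kept its call under 15 of 28 alternatives.

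**Figure D5:**
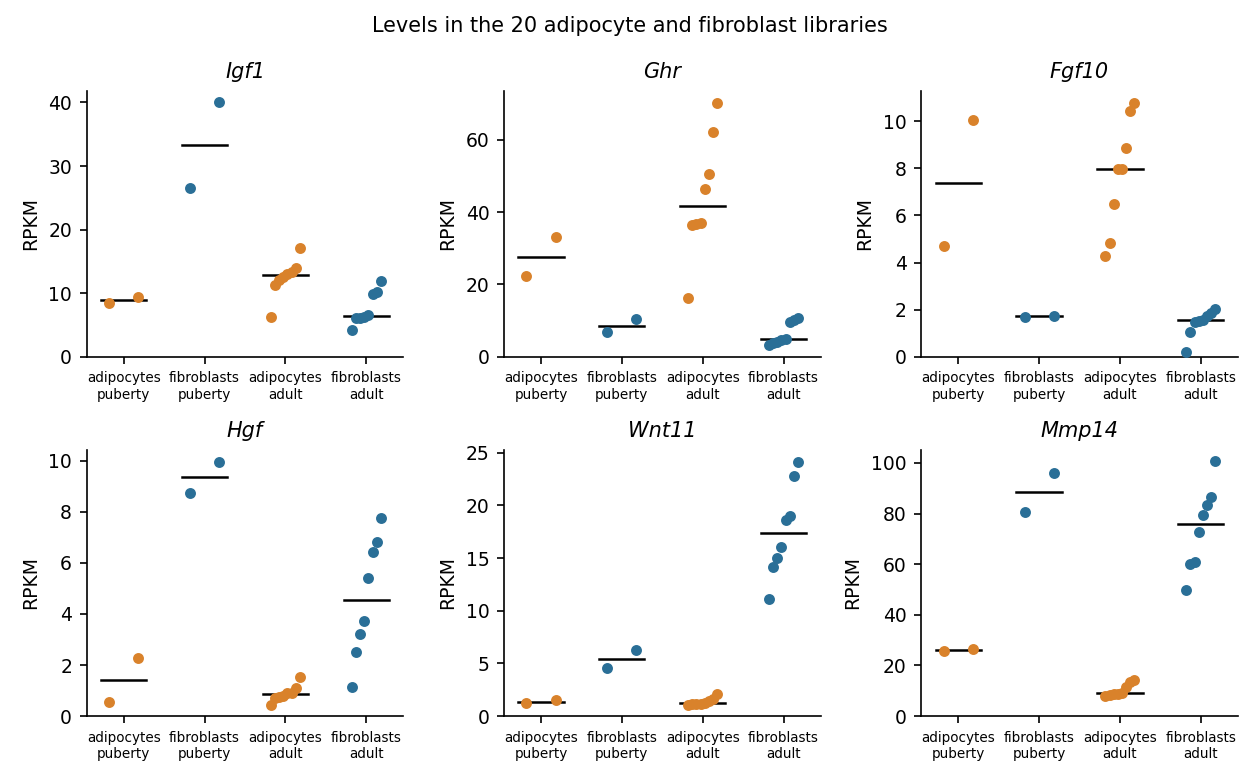
RPKM in each of the 20 adipocyte (orange) and fibroblast (blue) libraries, scaled together, with points placed by level and the median as a bar, for 6 genes on linear axes from 0. Igf1 in the 2 pubertal fibroblast libraries lay at 26.5 and 40.1 RPKM, above the adult fibroblasts at 4.23 to 12, while Fgf10 was higher in adipocytes and Hgf in fibroblasts at both ages.

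Among the matrix genes, Aspn, a small proteoglycan, gave a log2 fold change of adipocytes over fibroblasts of -2.93 in puberty and 0.14 in the adult (difference -3.06, SE 0.66, edgeR adjusted p = 0.026), and Ogn, of the same family, gave -2.48 in puberty and 0.12 in the adult. Igfbp2 gave -0.74 in puberty and -4.14 in the adult (difference 3.40, SE 0.62, edgeR adjusted p = 0.018), and Dio2 -5.33 in puberty and -2.36 in the adult (difference -2.97, SE 0.73, edgeR adjusted p = 0.0368). Ucp1 was less far above fibroblasts in puberty than in the adult, 7.29 in puberty and 11.63 in the adult (difference -4.33, SE 1.15, edgeR adjusted p = 0.0451), with 203 and 71.6 RPKM in pubertal adipocytes against a median of 845 (range 226 to 1197) in adult ones, and kept its call under 13 of 28 alternatives. Erbb3 gave 4.47 in puberty and 1.07 in the adult, St14 5.23 in puberty and 1.17 in the adult, Spint1 6.28 in puberty and 1.35 in the adult, Wnt7b 5.15 in puberty and 1.41 in the adult and Fgfr2 1.34 in puberty and -0.82 in the adult, all genes highest in luminal cells. The adult libraries were not alike in these genes: Erbb3 was at 13.5 and 8.29 RPKM in the diestrus adipocyte libraries, beside 12 and 9.82 RPKM in pubertal adipocytes, and at 0.449 to 1.44 RPKM in the other 6 adult adipocyte libraries. St14 was likewise at 8.51 and 9.25 RPKM in diestrus, 7.2 and 6.11 in puberty and 0.229 to 0.932 in the other adult adipocytes, and for Spint1, Wnt7b and Fgfr2 too both diestrus libraries lay above the other 6. The differences of these 5 genes are thus from an adult mean that the diestrus adipocytes do not share. The 15 luminal markers had a median difference of 2.51 in the same direction, with 0 of 15 past the threshold by edgeR and 9 at an unadjusted p under 0.05, and their part in these 5 genes was not tested. Aspn and Igfbp2 each kept the call under 25 of 28 alternatives, and Dio2 under 16, all of them losing it without pubertal fibroblast replicate 2. With the pool block the adjusted p was 0.0409 for Aspn and 0.0494 for St14, but 0.0573 for Igfbp2, 0.0583 for Dio2, 0.0602 for Ucp1, 0.0632 for Mmp14, 0.0514 for Erbb3, 0.0632 for Spint1, 0.0802 for Wnt7b, 0.0632 for Ogn and 0.0573 for Fgfr2.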

How the data were processed

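The authors made polyA-selected stranded libraries, sequenced single reads of 65 bases, aligned them to GRCm38 with TopHat2 2.1 and Bowtie 1.1.0 (versions per the labels and methods) and deposited whole-number HTSeq counts per gene, unnormalized. The strand setting and annotation of the counting are not given in the sources used here. A pubertal library pools 4 mice, and replicates had been chosen on RNA quality. Pubertal libraries held 11774264 to 19033586 counts.

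From the counts, edgeR 4.0.16 (R 4.3.3) gave TMM factors and quasi-likelihood tests with Benjamini-Hochberg adjustment at 0.05, after a filter of more than 1 CPM in at least 2 libraries. The 8 pubertal libraries were fitted together, and the 20 adipocyte and fibroblast libraries for the comparison with adults. RPKM use exon lengths of the GRCm38 annotation. On simulated counts for the pubertal comparison, 40 of 100 genes changed by 2 on the log2 scale and 0 of 100 changed by 1 were recovered, with 5 false calls. No other genes differed between the types in these counts, where 28.4% were called in the data, so the rates do not carry over to the data.

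Genes named are list members, with at most 4 per list and direction chosen by adjusted p, a fixed set of signals, and the 12 of largest change per direction. A few genes that the rule selected are not reported here. The members and lists were chosen with earlier results of these data known. Alternatives were RLE factors, library totals, DESeq2 1.42.0, no filter, edgeR's newer method, a replicate block, fewer or more libraries, and leaving out each library.

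In puberty, replicate 1 came from day 34 in all types, but replicate 2 of the adipocytes came from another day than that of the sorted types. No block was used there. In adults a number marks the same pool of mice. Deviations from the group means of same-numbered adipocyte and fibroblast libraries correlated by 0.0688 (proestrus), -0.0232 (estrus), -0.0221 (metestrus) and 0.133 (diestrus).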

Additional observations from a re-analysis of the deposited data

Results flagged for a closer look

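In 45 genes the log2 fold change of adipocytes over fibroblasts differed between puberty and the adult by edgeR's test of the difference itself, and the difference, puberty minus adult, stands in brackets below. They comprise the 8 genes per direction with the smallest adjusted p and the list members under 0.05. Age and sequencing run cannot be told apart, and every one of the 45 lost the call without pubertal fibroblast replicate 2.

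The 2 genes with the smallest p were Bche, butyrylcholinesterase, at 4.73 and 4.46 RPKM in pubertal adipocytes, 3.15 and 4.85 in pubertal fibroblasts, a median of 9.85 (range 4.8 to 14.6) in adult adipocytes and 0.101 (range 0 to 0.344) in adult fibroblasts, and Pnpla8, a phospholipase. Fibroblasts held Bche in puberty and hardly in the adult, so that its fold change was 0.20 in puberty and 6.36 in the adult. More toward fibroblasts in puberty were Bche (-6.15), Pnpla8 (-2.21), Acyp2 (-1.73), Smim10l1 (-1.57), Emc2 (-1.59), Grb14 (-2.74), Syap1 (-1.76) and AW549877 (-1.27), and among the growth signals and hormone genes Igf1 (-2.63), Nampt (-1.37), Nr3c1 (-1.20), Bmp3 (-1.94), Dio2 (-2.97), Thrb (-1.28) and Hsd17b4 (-0.90). The same direction held for the matrix genes Col4a3 (-3.14), Aspn (-3.06) and Ogn (-2.60), the lipid genes Cav1 (-1.93) and Agpat2 (-2.03), the heat gene Ucp1 (-4.33) and the transcription factor Zeb2 (-1.19).

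More toward adipocytes in puberty were the receptors Erbb2 (1.93), Erbb3 (3.40), Fgfr2 (2.17) and Plxnb2 (1.48), the proteases and inhibitors St14 (4.06), Spint1 (4.92) and Mmp14 (1.11), and Igsf8 (1.44), Foxp4 (1.46), Crtc1 (1.42), Slc7a5 (1.69) and Plekhh1 (3.58). Signals in this direction were Igfbp2 (3.40), Wnt11 (1.70), Wnt4 (2.46), Wnt7b (3.75) and Ntn1 (1.36), and with them Col7a1 (2.12), Col4a6 (1.72) and Abcg1 (1.59). From the lists of other cell types and states, S100a8 of leukocytes (6.11), Sox10 of Schwann cells (2.49) and Mcm5 of replication (1.04) lay in the same direction. Wnt4, a ligand of progesterone-driven branching, had a fold change of 0.42 in puberty and -2.04 in the adult. The 15 luminal markers had a median difference of 2.51 in this direction, and their part in these genes was not tested. For Erbb3, St14, Spint1, Wnt7b and Fgfr2 both diestrus adipocyte libraries lay above the other 6 adult ones, as given above. Adult adipocytes also spread widely in Plekhh1 (median 0.144 and highest 1.49 RPKM), Plxnb2 (3.46 and 15.2), Sox10 (1.16 and 6.95) and Col4a6 (0.233 and 2.28).

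The pool block pairs the adult libraries by pool of mice and the pubertal ones by replicate number, which do not share a day in replicate 2. With it, 17 of the 45 kept an adjusted p under 0.05 by edgeR: AW549877, Acyp2, Aspn, Bche, Emc2, Erbb2, Foxp4, Grb14, Igf1, Igsf8, Plxnb2, Pnpla8, Slc7a5, Smim10l1, St14, Syap1 and Wnt4.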

How the results depend on the processing

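In the comparison of pubertal adipocytes with fibroblasts, the 4044 calls ranged from 1366 (without fibroblast replicate 1) to 4961 (without luminal replicate 2) when a library was left out, with 838 to 2835 higher in adipocytes and 528 to 2126 higher in fibroblasts. RLE factors, library totals, DESeq2, no filter, the newer method, a replicate block and the 4 libraries alone gave 3246 to 4599. With the replicate block 4533 genes were called. Its numbers share a day between adipocytes and fibroblasts in replicate 1 but not in replicate 2 (deviations correlated by 0.0946). Of 187 genes selected for naming, 161 were called and 101 of them under every alternative that gave a value; no call changed sign. Stroma against epithelium gave 4699 to 7561 calls without a library, with 3110 to 4134 higher in the stroma and 1589 to 3427 in the epithelium; library totals gave 4692 in the epithelium and a median log2 fold change of -0.32.

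The difference between puberty and adult depended most on the settings. Calls ran from 0 to 1496 when 1 library was left out, with 0 to 478 toward adipocytes and 0 to 1151 toward fibroblasts, and without both adult diestrus adipocyte libraries there were 2263 (876 and 1387). The replicate block gave 68 (21 toward adipocytes and 47 toward fibroblasts), DESeq2 1961 (844 and 1117), all 40 libraries 1994 (1320 toward adipocytes), no filter 437 (228 toward fibroblasts), and library totals 682 toward adipocytes and 94 toward fibroblasts with a median difference of 0.29. The cause was not tested. Counts under 3 over a group set the depth limit for adipocyte genes in fibroblasts.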
